A study of Argopecten irradians irradians x Argopecten purpuratus with 6 samples.

Results

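The 100 most abundant transcripts of the scallop adductor muscle were the 100 genes with the highest mean FPKM over 6 RNA-seq libraries, out of 29249 genes in the files. FPKM counts sequenced fragments per kilobase of gene at a common library depth. Its comparison across libraries still depends on how the libraries are scaled, and other scalings are given below. The members were chosen by their mean FPKM over both muscle colours, so their levels are a description and carry no test, while the difference between the colours was not used in the choice. The libraries came from 1-year-old scallops of strains that descend from crosses between the bay scallop and the Peruvian scallop (both Argopecten species). There were 3 libraries from orange adductor muscles and 3 from white adductor muscles, and each was made from RNA of a pool of 3 muscles. The paper gives the orange muscles as those of the QN Orange strain and the white muscles as those of Bohai Red, whereas the sample labels write Bohai Red for both. No treatment was applied, and strain and muscle colour cannot be told apart in this design. A p-value below sets the difference between the colours against the spread between pools. The study asked which genes differ between the muscle colours.

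The adductor muscle closes the shell of a scallop, and its striated part drives swimming by repeated fast contractions. In striated muscle generally, the most abundant messenger RNAs tend to be those of the contractile apparatus (actin, myosin, tropomyosin and, in molluscs, paramyosin), of energy supply (arginine kinase, glycolytic enzymes) and of the ribosome. The tables used here pair no identifier with a gene name, so each member is given by its identifier in the authors' gene models of the bay scallop genome, no role is assigned to it, and the muscle label could not be checked against marker genes. In bulk RNA, a shift in the mix of cells in a pool and a shift in the RNA of each cell cannot be told apart.

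The number of reads on genes, recovered from the spacing of the FPKM values, ranged from 27778084 to 36093567 over the orange libraries and from 27564653 to 29303613 over the white ones. Every member had at least 7437 reads in every library, a number whose counting error alone is 1.16%.

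The members held most of the FPKM sum of each library, and a smaller share of the reads on genes. Their share of the FPKM sum was 56.4%, 56.3% and 62.1% in orange replicates 1, 2 and 3, against 55.5%, 60.0% and 52.5% in white replicates 1, 2 and 3. The mean was 58.3% ± 3.33 in orange and 56.0% ± 3.81 in white muscles (SD, n = 3 libraries each), and the ranges overlapped (difference 2.24 percentage points, exact permutation test, two-sided p = 0.4, where the smallest possible p is 0.1). The difference was 0.316 percentage points without orange replicate 3, 0.47 without white replicate 3 and 4.25 without white replicate 2. Counted in reads, which do not divide by gene length, the same genes took 45.8% ± 4.23 of the reads on genes in orange and 43.4% ± 4.18 in white muscles (SD, n = 3 each).

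**Figure D1:**
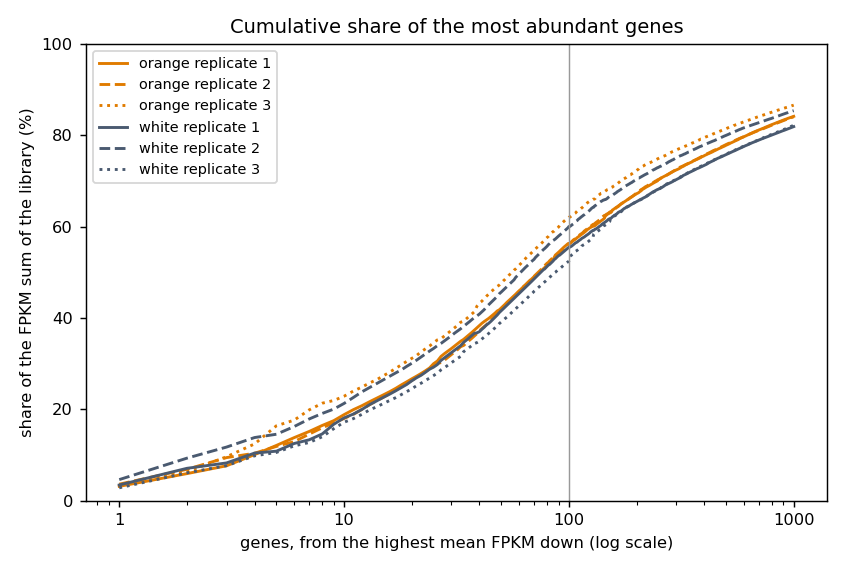
Share of the FPKM sum of each library (%, y axis) held by the most abundant genes, added up from the highest mean FPKM down (x axis, log scale), with 1 line per library, orange or blue-grey by muscle colour, and a vertical line at 100 genes. At 100 genes the orange lines stand at 56.3% to 62.1% and the white lines at 52.5% to 60.0%, and the colours interleave.

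Within the 100, expression was concentrated in a few genes. The 10 highest held 19.9% ± 2.6 of the FPKM sum in orange and 18.9% ± 2.16 in white muscles (SD, n = 3 each), and 4 members had a mean over 10000 FPKM. Another 9 lay between 5000 and 10000 FPKM, and the mean fell to 1013 FPKM at rank 100. The median member was at 2368 FPKM, against 3.75 FPKM for the median of the 15341 tested genes (mean of at least 0.5 FPKM). The list was much the same in each library. Of the members, 85 were among the top 100 of all 6 libraries, and each single library shared 92 to 96 of its own top 100 with the list.

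The first 2 members were nearly level. The FPKM of evm.TU.Contig745.1 was 18205, 21589 and 18532 in orange replicates 1, 2 and 3, against 19612, 26317 and 16147 in white replicates 1, 2 and 3. That of evm.TU.Contig744.1 was 16064, 19336 and 18722 in the orange and 20673, 26655 and 18610 in the white libraries. The colours overlapped in both genes, and white replicate 2 was the highest library in both. The first place itself changed hands. It was held by evm.TU.Contig745.1 in orange replicates 1 and 2, by evm.TU.Contig1462.6 in orange replicate 3 and by evm.TU.Contig744.1 in the 3 white libraries.

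Places 3 and 4 had similar means and different spreads. The FPKM of evm.TU.Contig731.36 was 9848, 15206 and 18975 in orange and 6679, 13789 and 8928 in white replicates 1, 2 and 3. For evm.TU.Contig251.4 it was 14098, 5684 and 16425 in orange, and 12240.3, 11862 and 12270.4 in white replicates 1, 2 and 3. The white libraries of evm.TU.Contig251.4 stood within a narrow band, and orange replicate 2 lay far below all others. Both are long genes, of 3909 and 3686 bases, and had the most reads of all members, 8872984 and 8128690 over the 6 libraries.

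The fifth gene, evm.TU.Contig1462.6, was the one of the first 10 with the widest gap between the colours. It had 11593, 8892 and 23122 FPKM in orange replicates 1, 2 and 3, against 2357, 4072 and 4212 FPKM in white replicates 1, 2 and 3. Every orange library lay above every white one, and orange replicate 3 stood highest. Alone it made up 3.96% of the FPKM sum of that library, and 0.416% to 0.741% of the sums of the white libraries.

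The remaining genes of the first 10 were closer together. Evm.TU.Contig243.9 had 7794, 9783 and 13135 FPKM in orange and 4577, 9432 and 4205 FPKM in white replicates 1, 2 and 3. Evm.TU.Contig79.64 had 6034, 6272 and 3476 FPKM in orange and 11987, 5393 and 10057 FPKM in white replicates 1, 2 and 3. In both genes 1 white library, replicate 2, lay inside the orange range. Means were 7774 ± 1876 FPKM in orange and 9104 ± 807 FPKM in white muscles for evm.TU.Contig362.107 (SD, n = 3 each). For evm.TU.Contig1357.4 they were 6275 ± 1141 FPKM in orange and 7619.9 ± 526 FPKM in white muscles (SD, n = 3 each), and the values of the colours overlapped in both. Evm.TU.Contig330.43 was the steadiest of the first 10, with 7569, 8254 and 8518 FPKM in orange and 7303, 6863 and 7151 FPKM in white replicates 1, 2 and 3, and here the colours did not overlap.

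**Figure D2:**
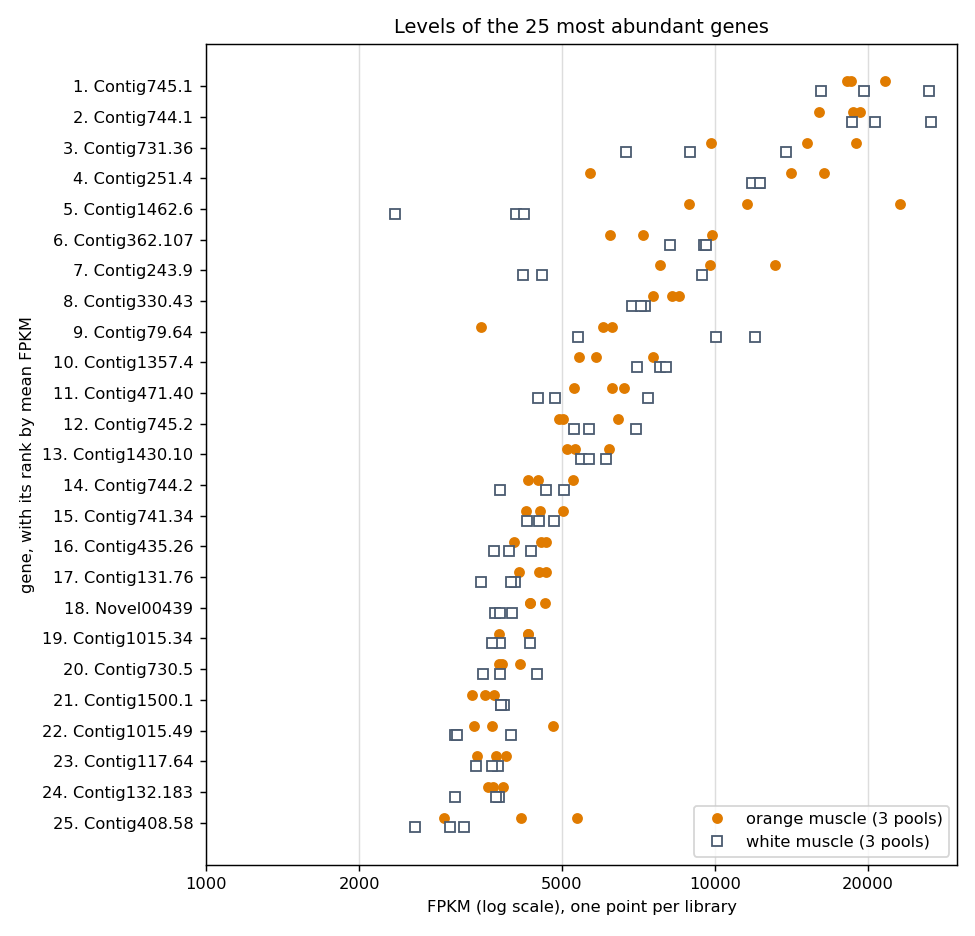
FPKM of the 25 members of highest mean (x axis, log scale), 1 row per gene in order of rank, with orange circles above for the 3 orange libraries and open squares below for the 3 white libraries. Several of the first 10 genes spread widely, evm.TU.Contig1462.6 most of all from 2357 to 23122 FPKM. Most genes below the first 10 keep their 6 libraries close together.

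Several members stand on the same contig, which the ranking did not use. The 94 members with an evm identifier came from 78 contigs, and 14 contigs carried 2 or more of them. In 4 pairs the members were next to each other in the numbering of the contig, on Contig744 (genes 1, 2 and 3), Contig745 (genes 1 and 2) and Contig284 (genes 44 and 45). The leading pair was followed by its neighbours. Evm.TU.Contig745.2, at rank 12, had 4954, 6444 and 5042 FPKM in orange and 5654, 6990.4 and 5299.9 FPKM in white replicates 1, 2 and 3. Evm.TU.Contig744.2, at rank 14, had 4490.3, 5258 and 4305 FPKM in orange and 4664, 5051 and 3782 FPKM in white replicates 1, 2 and 3.

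The ratio of evm.TU.Contig745.1 to evm.TU.Contig745.2 was kept between 3.05 and 3.77 in all 6 libraries. The ratio of evm.TU.Contig744.1 to evm.TU.Contig744.2 was 3.58, 3.68 and 4.35 in orange and 4.43, 5.28 and 4.92 in white replicates 1, 2 and 3. The colours did not overlap, but the ratios were not tested, and 24.1% of all tested genes had levels without overlap. Across the 2 contigs, evm.TU.Contig744.1 stood at 0.882 to 1.01 times evm.TU.Contig745.1 in orange and at 1.01 to 1.15 times in white libraries. Whether these genes are near-identical copies was not tested, since their sequences were not used here, and how reads common to them were counted is uncertain. Evm.TU.Contig744.3, at rank 58, had 1909, 2108 and 1678 FPKM in orange and 1942, 3150.2 and 1989 FPKM in white replicates 1, 2 and 3, again highest in white replicate 2.

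The neighbours on Contig284 behaved unlike each other. Evm.TU.Contig284.44 had 5904, 1214 and 1572 FPKM in orange and 5174, 2820.0 and 4006 FPKM in white replicates 1, 2 and 3. Its orange libraries spanned the whole range of the white ones and more. Evm.TU.Contig284.45, the next gene, had 1179, 1109 and 1180.1 FPKM in orange and 1713, 1907 and 1671 FPKM in white replicates 1, 2 and 3. Here the 3 orange libraries were almost equal and all lay below the white ones. The ratio of the first to the second thus ranged from 1.09 to 5.01 over the libraries.

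Most members varied little between pools of the same colour. The spread was measured as the within-colour SD of log2(FPKM + 0.5), where 0.1 is several percent of the level. Its median was 0.122 over the members, against 0.333 over all tested genes and 0.321 over the next 900 genes in the ranking. An SD under 0.1 was found in 40 members, against 2.3% of all tested genes and 3.89% of the next 900 genes. The 10 highest members as a set were not part of this pattern, with a median SD of 0.386, and 1 of them had an SD under 0.1. The low spread was seen at ranks 11 to 50 (median 0.118) and 51 to 100 (median 0.109), and the median was 0.266 over the 100 genes that follow. This count depends on how the libraries are scaled. With median-ratio scaling, 2 members had an SD under 0.1 (3.83% of all tested genes), and 6 did (3.16%) after rescaling to the total of the genes outside the list, while 37 did (3.77%) after quantile normalization. The medians over the members were then 0.207, 0.196 and 0.116, each still below the median over the next 900 genes under the same scaling (0.320, 0.309 and 0.305).

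**Figure D3:**
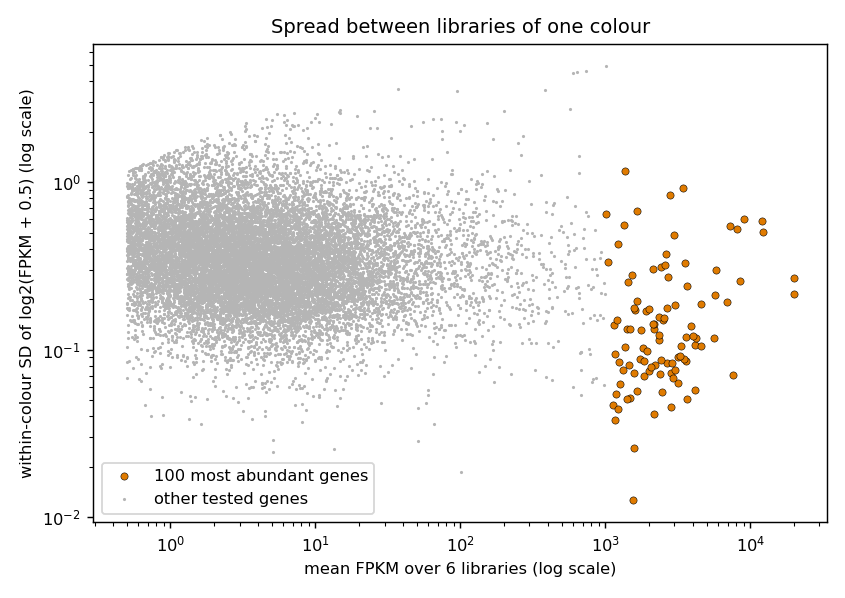
Within-colour SD of log2(FPKM + 0.5) (y axis, log scale) against mean FPKM over the 6 libraries (x axis, log scale), with 1 point per tested gene and the 100 members in orange. The members reach down to an SD of 0.0126 and have a median of 0.122, against a median of 0.333 over all tested genes.

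The steadiest member was evm.TU.Contig687.23. It had 1531, 1532 and 1555 FPKM in orange and 1573, 1546 and 1565 FPKM in white replicates 1, 2 and 3, an SD of 0.0126. The highest library was thus 1.03 times the lowest, over 334429 reads. Evm.TU.Contig225.126 came next, with 1579.5, 1649.8 and 1592 FPKM in orange and 1536, 1518 and 1549 FPKM in white replicates 1, 2 and 3. The third, evm.TU.Contig1145.1, had 1228, 1198 and 1241 FPKM in orange and 1159, 1101 and 1090.3 FPKM in white replicates 1, 2 and 3. In the last pair of genes the orange values all lay above the white ones, by differences of a few percent. These values hold for the deposited scaling.

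Many steady members had their extremes in the same libraries. Of the 40 with an SD under 0.1, 20 were highest in orange replicate 2 and 17 were lowest in white replicate 3. Over all 100 members, 35 were highest in orange replicate 2 and 39 lowest in white replicate 3. The median deviation of the members from their gene mean was 0.099 in orange replicate 2 and -0.109 in white replicate 3 on the log2 scale. These counts and deviations are for the deposited scaling. With median-ratio scaling 2 members had an SD under 0.1, and the libraries of the extremes were not counted. The 40 steady genes together held 15.9%, 16.6% and 16.5% of the FPKM sum in orange and 16.3%, 15.9% and 15.4% in white replicates 1, 2 and 3.

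Against this background, 11 members differed by more than 3-fold between their highest and lowest library. Except for those named above and by the rule, they were picked out after their values were seen. The 11 are grouped below by the libraries of their extremes, and the groups were not tested. Over all 100 members, orange replicate 3 was the highest library in 30. White replicate 1 was the lowest in 12 and white replicate 3 in 39. Orange replicate 3 was the highest library in evm.TU.Contig1462.6, evm.TU.Contig243.9, evm.TU.Contig352.50 and evm.TU.Contig442.8, and white replicate 1 or 3 the lowest. The widest of all was evm.TU.Contig352.50, with 2834, 2973 and 7064 FPKM in orange and 563, 2019 and 1198 FPKM in white replicates 1, 2 and 3, a 12.5-fold range. Evm.TU.Contig442.8 had 1335, 1266 and 2290.5 FPKM in orange and 635, 1059.8 and 751 FPKM in white replicates 1, 2 and 3.

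A second group had its highest value in orange replicate 1, the highest library in 7 of all 100 members. Evm.TU.Contig124.136 had 3000.2, 448 and 512 FPKM in orange and 1837, 810.4 and 1596 FPKM in white replicates 1, 2 and 3. It had the largest within-colour SD of all members, 1.17, and the lowest rank in any library, 190. Evm.TU.Contig284.44, described above, was likewise highest in orange replicate 1 and lowest in orange replicate 2. Evm.TU.Contig0.13 had 2756, 936 and 1630.5 FPKM in orange and 987, 977 and 848 FPKM in white replicates 1, 2 and 3.

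Another group ran the other way, with orange replicate 1 lowest and white replicate 2 highest. Over all 100 members, orange replicate 1 was the lowest library in 19 and white replicate 2 the highest in 15. Evm.TU.Contig421.35 had 683, 1719 and 2137 FPKM in orange and 1639, 2333 and 1424 FPKM in white replicates 1, 2 and 3. Evm.TU.Contig33080.1, the last member of the list, had 464, 1172 and 1081 FPKM in orange and 888, 1629 and 845 FPKM in white replicates 1, 2 and 3. In both, the colours overlapped throughout. The other widely varying members were evm.TU.Contig79.64, given above, and evm.TU.Contig220.45. Together the 11 genes took 7.76%, 6.11% and 9.8% of the FPKM sum in orange and 6.11%, 5.91% and 6.16% in white replicates 1, 2 and 3.

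**Figure D4:**
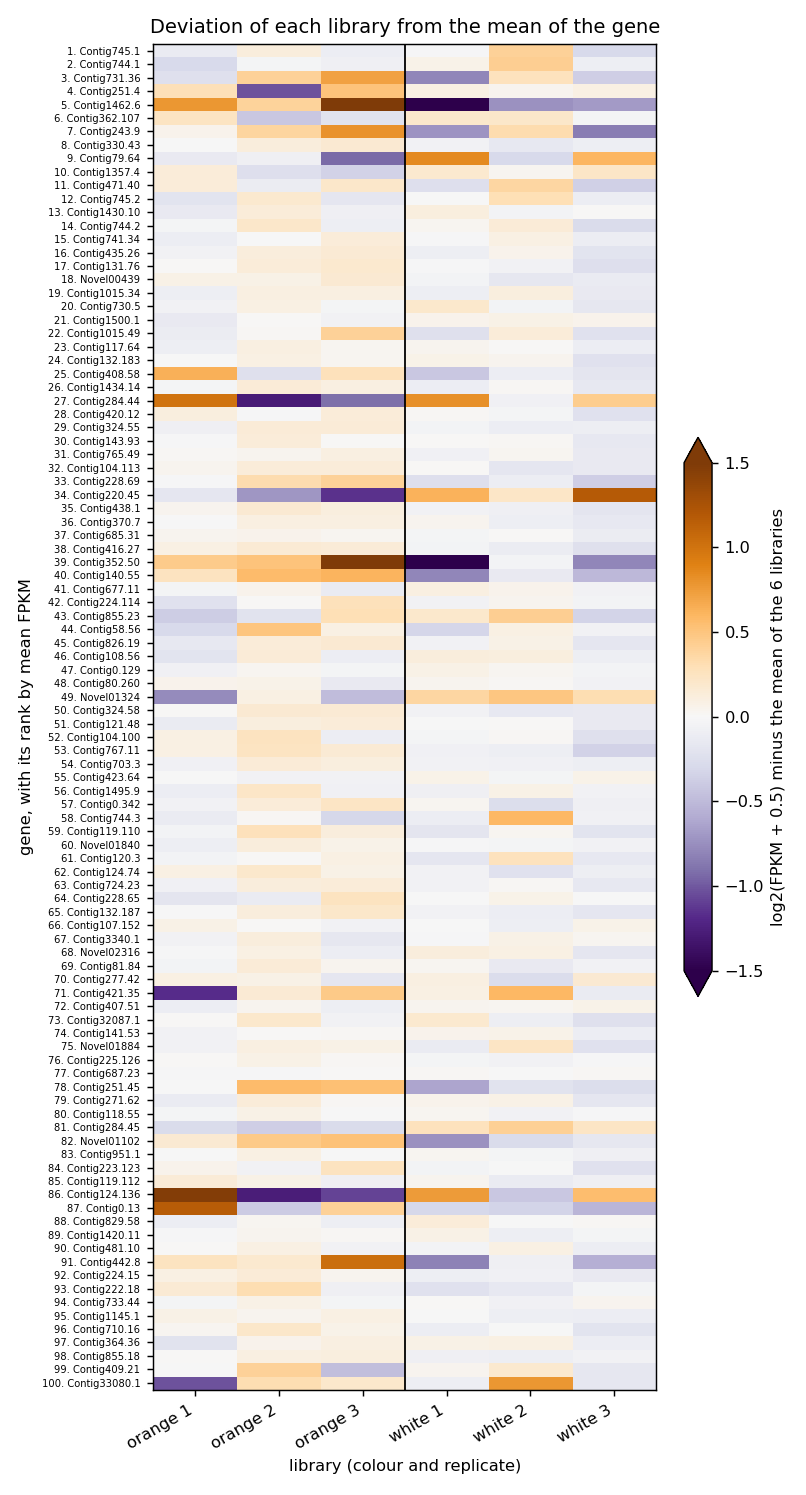
Deviation of each library from the mean of the gene on the log2(FPKM + 0.5) scale (colour scale, brown above and purple below the mean, saturated beyond 1.5), with the 100 members in rows by rank and the 3 orange libraries left of the 3 white ones. Most rows are pale in all 6 libraries, and a few rows, such as evm.TU.Contig1462.6, evm.TU.Contig352.50 and evm.TU.Contig124.136, are strongly coloured.

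Orange and white adductor muscles were compared with limma on log2(FPKM + 0.5) over all 15341 tested genes. Fold changes are orange over white, and a gene was called, by the study's thresholds, where the Benjamini-Hochberg adjusted p was under 0.05 and the level differed by more than 2-fold (1 on the log2 scale). Of the 100 members 0 were called, against 1.43% of the tested genes (0.652% higher and 0.776% lower in orange). Without the fold threshold 0 members passed, against 1.45% of the tested genes. At an unadjusted p under 0.05 there were 13 members, against 18% of the tested genes, of which 10 were higher in orange (6.56%) and 3 lower (11.4%). An absolute log2 fold change over 1 was found in 3 members, against 10.4%. With limma voom on the recovered reads the count of members called was also 0. It was 1, evm.TU.Contig1462.6, under 2 of the other alternatives, quantile normalization among them. Without white replicate 2 it was 1 as well, evm.TU.Contig140.55, and with any other library left out it was 0.

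The widest differences between the colours among the members were not past the threshold. The log2 fold change of evm.TU.Contig1462.6 was 1.96 (SE 0.37, 95% interval 1.10 to 2.82, limma adjusted p = 0.0524), with 14536 ± 7558 FPKM in orange and 3547 ± 1033 FPKM in white muscles (SD, n = 3 each). The limma adjusted p of this gene was 0.0427 with quantile normalization, and over all alternatives it lay between 0.0176 and 0.163. Evm.TU.Contig352.50 had a log2 fold change of 1.82 (SE 0.51, 95% interval 0.62 to 3.01, limma adjusted p = 0.137). In both genes the 3 orange values lay above the 3 white ones.

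Evm.TU.Contig220.45 was the member with the lowest log2 fold change, -1.35 (SE 0.31, 95% interval -2.07 to -0.63, limma adjusted p = 0.0857). It had 2305, 1592 and 1169 FPKM in orange and 4015, 3016 and 5867 FPKM in white replicates 1, 2 and 3, with no overlap. The next lowest was evm.TU.Contig284.44, at -0.79, whose values overlapped. Its neighbour evm.TU.Contig284.45 had a smaller difference with a smaller error, -0.61 (SE 0.12, 95% interval -0.89 to -0.33, limma adjusted p = 0.0583).

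In the range just under a 2-fold difference, evm.TU.Contig140.55 had the second lowest adjusted p among those higher in orange, and is named after its values were seen. It had 3031, 3775 and 3915 FPKM in orange and 1478, 2332 and 1788 FPKM in white replicates 1, 2 and 3, a log2 fold change of 0.95 (SE 0.19, limma adjusted p = 0.0609). Its colours did not overlap. With quantile normalization the limma adjusted p was 0.0485 and the log2 fold change, 0.95, was under the fold threshold, and without white replicate 2 they were 0.0417 and 1.13. Over all alternatives its limma adjusted p lay between 0.032 and 0.197.

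For most members the data set a bound on the difference. The absolute log2 fold change was under 0.25 in 74 members, against 41.3% of all tested genes (54 members and 42.6% with median-ratio scaling). The distance from the estimate to either end of the 95% interval had a median of 0.293 over the members and 0.643 over all tested genes. In 84 members, against 50.4% of all tested genes, the whole interval lay between -1 and 1, so that a 2-fold difference in either direction was outside it. For the first member, evm.TU.Contig745.1, the interval was -0.47 to 0.34, and for evm.TU.Contig744.1 it was -0.61 to 0.06. It was -0.27 to 0.23 for evm.TU.Contig687.23. The intervals are for single genes in the main fit at the deposited scaling, and are not adjusted for their number. In this fit the variance of each gene is drawn toward a trend over level, so interval width depends partly on level. For evm.TU.Contig687.23 the SE was 0.1082 at a within-colour SD of 0.0126.

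The direction of the small differences leaned to orange at the deposited scaling. Quantile normalization gives every library the same set of values, which largely removes a shift shared by the most abundant genes. Its values therefore cannot decide whether such a lean is present. The log2 fold change was above 0 in 67 members, against 39.2% of all tested genes. With median-ratio scaling it was above 0 in 86 members, against 49.4%. After rescaling to the total of the genes outside the list it was above 0 in 72, against 41.8%. With quantile normalization it was above 0 in 51 members, against 49.9%. The median log2 fold change was 0.07 over the members and -0.12 over all tested genes. It was 0.20 and -0.01 with median-ratio scaling, and 0.00 over the members with quantile normalization. With single libraries left out the median over the members ranged from 0.030 (without white replicate 3) to 0.112 (without orange replicate 1). The 3 orange values lay all above the 3 white ones in 23 members, against 8.32% of all tested genes, and all below in 4 members, against 15.7%. Together these are 27 members without overlap, against 24.1%. Where 5 libraries had to separate in place of 6, there were 48 without orange replicate 1 (33.8% of all tested genes) and 43 without white replicate 2 (41.6%). With median-ratio scaling the counts were 22 above (12.7% of all tested genes) and 3 below (13%), with quantile normalization 11 above (12.6%) and 10 below (12.6%). After rescaling to the total of the genes outside the list they were 14 above (9.15%) and 3 below (16.5%). Of the 23 members, 14 had a log2 fold change under 0.25.

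**Figure D5:**
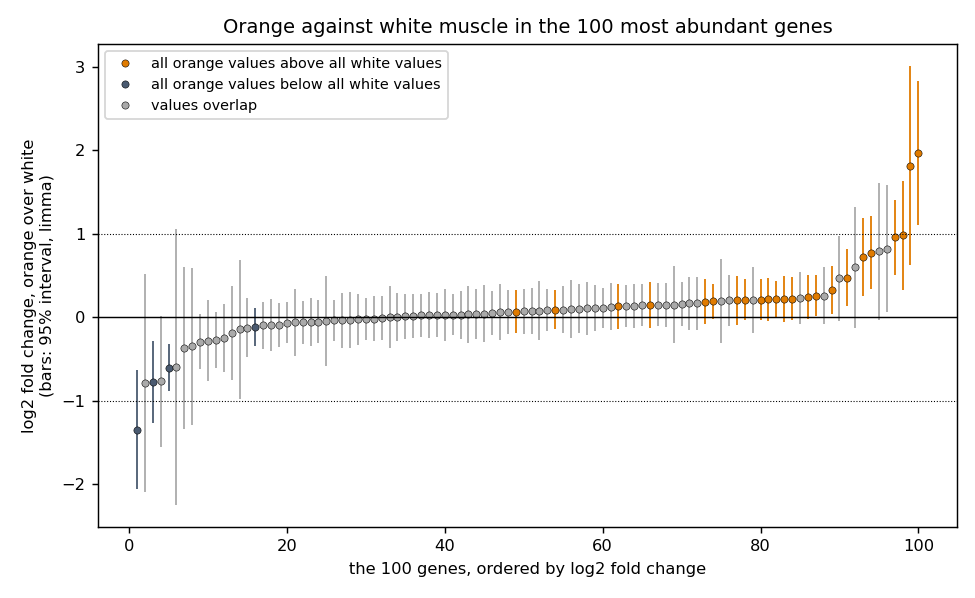
Log2 fold change of orange over white muscle (y axis, log2(FPKM + 0.5) scale) of the 100 members in increasing order (x axis), with 95% intervals from limma as bars and dotted lines at -1 and 1. Orange points mark the 23 members whose orange values all lay above the white ones, dark points the 4 with all orange values below, and grey points the 73 with overlapping values.

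Members were mostly short genes, in a ranking by FPKM, which divides by gene length. The median length recovered from the FPKM steps was 749.5 bases, against 1911 bases over all tested genes. Of the members 65 were under 1000 bases, against 24.6% of all tested genes, and 35 were under 500 bases, against 9.8%. The shortest, also named after the values were seen, was evm.TU.Contig120.3, with 171 bases and 1928, 1990.0 and 2114 FPKM in orange and 1772, 2379 and 1799.7 FPKM in white replicates 1, 2 and 3. The spread was similar in shorter and longer members. The median SD was 0.119 over the 65 shorter and 0.15 over the 35 longer members, and over the next 900 genes it was 0.304 for those under 1000 bases and 0.323 for the longer ones. Ranked by reads in place of FPKM, 65 of the 100 members stayed in the first 100.

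Among the members 6 were gene models numbered apart from the contigs, a class that made up 11.6% of the tested genes. The highest was Novel00439, at rank 18, with 4332, 4344 and 4633 FPKM in orange and 4004, 3696 and 3786 FPKM in white replicates 1, 2 and 3, without overlap. Its log2 fold change was 0.21 (95% interval -0.01 to 0.44, limma adjusted p = 0.302). Novel01324, at rank 49, was the longest member by far, with 13124 bases and 5673904 reads. It had 1354, 2442 and 1640.2 FPKM in orange and 2975, 3226 and 2853 FPKM in white replicates 1, 2 and 3, and every orange library lay below every white one (log2 fold change -0.78, SE 0.21, limma adjusted p = 0.13). Novel01840, at rank 60, had 2113 ± 159 FPKM in orange and 2014 ± 25.6 FPKM in white muscles (SD, n = 3 each), with overlapping values.

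The study also lists 74 DEPs, proteins it selected as differing between the muscle colours. An identifier of that list is carried by 2 of the 100 members, against 74 of the 15341 tested genes. The list could hold only proteins that the study's label-free proteomics detected, a smaller set than the tested genes. The tested genes are therefore not a matched background for it. Whether the list favours abundant transcripts was not tested. Evm.TU.Contig80.260, at rank 48, had 2516, 2533 and 2206 FPKM in orange and 2497, 2446 and 2336 FPKM in white replicates 1, 2 and 3. Its log2 fold change was -0.01 (95% interval -0.27 to 0.26, limma adjusted p = 0.981). Evm.TU.Contig119.110, at rank 59, had 2044, 2547 and 2292 FPKM in orange and 1852, 2148 and 1850.5 FPKM in white replicates 1, 2 and 3, with a log2 fold change of 0.23 (95% interval -0.08 to 0.54, limma adjusted p = 0.404). The values of the colours overlapped in both genes.

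The limit of the list fell between near-equal means. Just inside, evm.TU.Contig409.21 had 1026, 1361.5 and 740.4 FPKM in orange and 1052, 1166 and 919 FPKM in white replicates 1, 2 and 3, a mean of 1044 FPKM, and evm.TU.Contig33080.1 had a mean of 1013 FPKM. Just outside, evm.TU.Contig274.63 had a mean of 1012 FPKM that came from a single library. It had 3.8, 102.3 and 1.8 FPKM in orange and 0.4, 69.7 and 5892 FPKM in white replicates 1, 2 and 3, and in white replicate 3 it was the ninth gene. The gene after it, evm.TU.Contig359.8, had 1029.5, 1329.8 and 1045 FPKM in orange and 707, 955 and 865 FPKM in white replicates 1, 2 and 3. Ranked by the orange libraries alone the list shared 97 genes with the members, and by the white libraries alone 93.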

How the data were processed

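RNA-seq libraries of 3 orange and 3 white adductor muscle pools were analysed and grouped by the muscle colour in the labels. The authors aligned paired-end reads using Hisat2 2.0.4 against a genome of the bay scallop that was unpublished at the time, counted reads per gene with HTSeq 0.9.1 and deposited FPKM values. Strandedness and the counting mode were not given in the sources used here, so how reads of near-identical or overlapping genes were counted is not known. FPKM divides by the reads on genes, of which the members hold a large part, so that a change in a few of them moves the others. Whole reads and gene lengths were recovered from the FPKM steps. At the smallest fitting length of 100 to 60000 bases, 100% of the 24393 expressed genes gave whole reads in all libraries, within 0.01 reads plus rounding. For genes with reads in few libraries some length nearly always fits, so the 100% is no check there. The length taken can be shorter than the true one. Recovered reads made up 99.57% (orange replicate 2) to 99.66% (white replicate 3) of the totals. The FPKM steps gave depth, reads and lengths. Counting errors take reads as independent.

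Differential expression used limma 3.58.1 (R 4.3.3) with a mean-variance trend on log2(FPKM + 0.5), a mean of at least 0.5 FPKM and no covariates, with Benjamini-Hochberg adjustment over 15341 genes. The study's own test was not run. Shares were compared by exact permutation (scipy 1.17.1). The limma fit and limma voom were tested on simulated data. Members, thresholds and lists were chosen with earlier results of these data known. The members named were the 10 of highest mean, any called, the 2 largest rises and falls, the 3 largest and smallest spreads, neighbours on a contig, the 3 highest gene models numbered apart from the contigs, the last 2 members and the 2 genes after them, and listed DEPs. Others are marked as named after their values were seen. Alternatives were pseudocounts of 0.1 and 1, filtering at a mean of 5 FPKM or not at all, 3 other scalings, no trend, robust empirical Bayes, a replicate block, limma voom on recovered reads, no fold threshold, other rankings, and each library left out.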

Additional observations from a re-analysis of the deposited data

How the results depend on the processing

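The count of members called, 0, was 1 with quantile normalization, 1 with a replicate block and 0 under the other alternatives, with 0 to 1 when each library was left out. The count over all tested genes, 219, was 66 without a filter, 30 with a mean of at least 5 FPKM, 16 with limma voom on recovered reads (13 higher and 3 lower in orange, against 100 and 119) and 21 to 264 with each library left out. The replicate block gave 187. The deviations of same-numbered orange and white libraries from their colour means correlated at 0.230, 0.151 and -0.189 across genes, and orange replicate 3 correlated best with white replicate 2 (0.270), so they were not taken as pairs. The median log2 fold change of the members, 0.073, was 0.203 with median-ratio scaling and 0.030 to 0.112 with each library left out. The number of members without overlap, 27, was 17 after rescaling to the total outside the members and 30 to 48 with each library left out, where fewer values have to separate. The median within-colour SD, 0.122, was 0.207 with median-ratio scaling and 0.196 with rescaling to the total outside the members, both tried after seeing the data, as was quantile normalization for this value. The list of 100 shared 65 genes with a ranking by recovered reads and 93 to 100 with the other rankings. Of the 30 genes named by the rule, 9 changed the sign of their log2 fold change under some alternative, and none of these was called. Evm.TU.Contig1462.6 was past the threshold under 2 of its 17 alternatives (adjusted p = 0.0427 with quantile normalization and 0.0176 with a replicate block). For evm.TU.Contig140.55 the limma adjusted p with a replicate block was 0.032, at a log2 fold change of 0.954 under the fold threshold. The intervals of some members, such as evm.TU.Contig124.136 (-2.25 to 1.06), included differences of more than 2-fold.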
